A study of Mus musculus with 16 samples.

Results

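The chondroitin sulfate proteoglycans and perineuronal net genes described here are 10 genes, chosen by name: Acan, Bcan, Ncan, Vcan, Cspg4, Cspg5, Hapln1, Hapln2, Hapln4 and Tnr. All 10 were found among the 43346 gene rows of the count table, and all 10 passed the filter on low counts, among 23769 rows tested. RNA was sequenced from 16 spinal cord libraries of female mice aged 12 weeks, of a strain spelled C57BL7J in the labels and with library names that all carry the mark WT, with 4 libraries in each of 4 groups. The injured groups are the epicenter and the adjoining pieces on its rostral side (above) and on its caudal side (below), each 3 mm long and taken 30 days after a contusion and compression of the lumbar cord (L1/L3) with an 8 g Fejota clip. Uninjured cord, which carries the same time label, was taken as 1 piece of 9 mm over the levels T11 to S1, so it pools the levels that injured cord gives as 3 groups. No label ties a library to an animal or a segment to a cord, so the spread behind each p-value is the one between these libraries and could be technical. The series is about regional differences in chronic spinal cord injury.

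Chondroitin sulfate proteoglycans are core proteins that carry long sulfated sugar chains. Aggrecan, brevican, neurocan and versican (Acan, Bcan, Ncan, Vcan) form the lectican family, whose members bind hyaluronan at the N-terminal end and tenascins at the C-terminal end. Link proteins (the Hapln family) fasten lecticans to hyaluronan, and tenascin-R (Tnr) joins lecticans to each other. Around the cell bodies of some neurons, motor neurons and fast-spiking interneurons among them, these molecules condense into perineuronal nets, and in the scar of an injured cord the proteoglycans are known as inhibitors of axon growth.

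The stretches of reference sequence before the transcription start are shown for 4 members that behaved differently: Acan and Ncan, which fell at the epicenter, Vcan, which did not pass there, and Cspg4, which rose. They are RefSeq sequences of build GRCm38.p6, which 8 of the 10 members had, cut to the bases that lie outside annotated exons. Acan is on the plus strand (chr7:79052976-79053225), Ncan on the minus strand (chr8:70120874-70121094), Vcan on the minus strand (chr13:89742513-89742762) and Cspg4 on the plus strand (chr9:56864854-56865032). Capitals mark any match, on either strand, to the AP-1 motif TGANTCA, the cyclic AMP response element TGACGTCA, the E-box CANNTG, the GC box GGGCGG, the TATA box TATAAA or the CCAAT box.
Acan: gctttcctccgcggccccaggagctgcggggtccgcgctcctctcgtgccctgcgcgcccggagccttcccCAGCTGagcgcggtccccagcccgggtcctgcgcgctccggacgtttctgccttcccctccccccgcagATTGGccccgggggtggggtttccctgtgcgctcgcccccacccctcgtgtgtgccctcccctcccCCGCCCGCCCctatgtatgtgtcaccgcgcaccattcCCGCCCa
Ncan: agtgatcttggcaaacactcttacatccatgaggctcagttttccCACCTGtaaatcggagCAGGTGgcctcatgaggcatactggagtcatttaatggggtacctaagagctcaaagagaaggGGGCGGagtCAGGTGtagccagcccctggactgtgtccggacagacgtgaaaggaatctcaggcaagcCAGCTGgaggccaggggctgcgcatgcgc
Vcan: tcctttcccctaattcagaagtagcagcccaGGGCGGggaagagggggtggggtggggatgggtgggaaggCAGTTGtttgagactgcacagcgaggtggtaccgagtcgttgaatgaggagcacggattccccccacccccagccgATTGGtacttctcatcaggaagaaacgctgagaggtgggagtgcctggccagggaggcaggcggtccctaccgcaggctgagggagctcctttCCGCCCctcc
Cspg4: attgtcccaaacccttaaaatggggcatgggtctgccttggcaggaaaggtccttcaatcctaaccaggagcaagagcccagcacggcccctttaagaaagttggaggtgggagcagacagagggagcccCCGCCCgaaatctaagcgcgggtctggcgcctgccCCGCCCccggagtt
Over the full 250 bases before the start, GC boxes were found in Acan (3), Ncan (1), Vcan (2) and Cspg4 (2), and 32.7% of 32851 promoters of the same length hold one. E-boxes were found in Acan (1), Ncan (4) and Vcan (1), against 66.2% of all promoters with a match, and a TATA box in Ncan (1), against 12.4%, in the bases left out of the printed stretch. CCAAT boxes were found in Acan (1) and Vcan (1), against 33.8% of all promoters. AP-1 and cyclic AMP element matches, held by 6.75% and 1.55% of all promoters, were not found in any of these 4 windows. The GC content was 74.4% for Acan, 54.4% for Ncan, 62.4% for Vcan and 60.4% for Cspg4, beside a median of 52.4% over all promoters. In the windows of the other members that had one, GC boxes were found in Bcan (1) and not in Hapln1, Hapln2 or Tnr. Their GC content was 62.0% for Bcan, 54.4% for Hapln1, 52.4% for Hapln2 and 46.8% for Tnr. Motif matches describe letters only, and no binding was measured.

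Library totals ran from 65.6 to 90.0 M counts. Levels are given as CPM, counts brought to a common library total that is adjusted by TMM (trimmed mean of M-values). Markers of neurons, oligodendrocytes and astrocytes were present in every group, and no marker of the lists used was at 0 in all libraries of a group. Below replicate 3 stood apart. Its 10 neuronal markers summed to 762 CPM, against 2861 to 3721 CPM in the other libraries below, and its 10 microglia and macrophage markers to 6853 CPM, against 729 to 2618 CPM. Above replicate 1 had fibroblast markers at 676 CPM in sum, against 192 to 211 CPM in the others above. Counts and fold changes against uninjured cord for the segment below are therefore also given without replicate 3. In bulk tissue, fewer cells of a type and less RNA per cell cannot be told apart.

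Per length, the members differed widely in level. In RPKM (CPM per kilobase of the gene length in the table), uninjured cord had Bcan at 86.2 ± 5.22, Hapln4 at 64.7 ± 3.21 and Hapln2 at 54.0 ± 1.95 (SD, n = 4). Cspg5 followed at 24.4 ± 1.27, Tnr at 13.7 ± 0.630 and Ncan at 11.5 ± 0.196. Acan was at 5.00 ± 0.296, Hapln1 at 4.28 ± 0.508, Cspg4 at 3.17 ± 0.184 and Vcan at 2.63 ± 0.163. Among neighbours in this order, only Acan and Hapln1 had overlapping libraries. The length in the table is 38.4% of the exonic bases of GENCODE M21 for Cspg5 and 67.5% for Cspg4. With the GENCODE length Cspg5 stood at 9.38 RPKM, under Tnr (13.7) and Ncan (11.5), and Cspg4 at 2.14 RPKM, under Vcan. At the epicenter the order was Bcan (62.4 ± 7.50 RPKM), Hapln2 (38.4 ± 3.76), Hapln4 (23.8 ± 5.77), Cspg5 (17.8 ± 2.41), Tnr (8.44 ± 0.919), Cspg4 (8.14 ± 0.847), Ncan (5.18 ± 0.489), Vcan (3.23 ± 0.865), Acan (1.84 ± 0.207) and Hapln1 (1.28 ± 0.207). There Hapln4 overlapped Cspg5, and Tnr overlapped Cspg4, by the length in the table. With the GENCODE length Cspg5 stood at 6.83 RPKM at the epicenter, under Hapln4 (21.7) and Tnr (8.44), and Cspg4 at 5.49 RPKM. By the length in the table, Cspg4 stood in place 6 at the epicenter and in place 9 in uninjured cord. With the GENCODE length these places were 6 and 10.

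**Figure D1:**
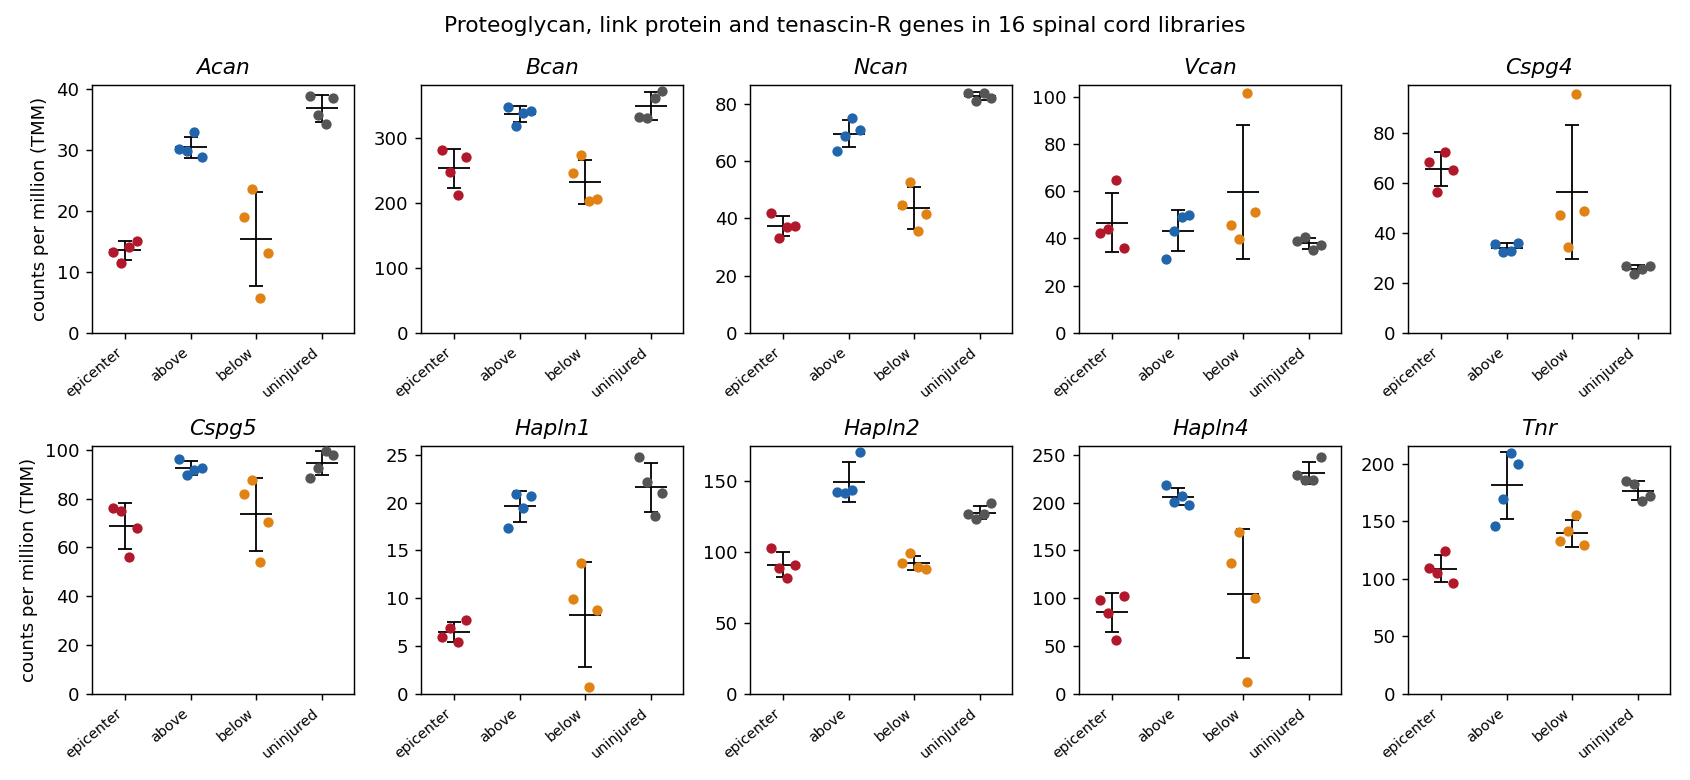
CPM (TMM scaled, y axis from 0) of each gene in the 4 libraries of each group (points), with mean and SD (bars). At the epicenter Cspg4 lies above uninjured cord and the other genes except Vcan below it, and below replicate 3 is the lowest point for Hapln1 (0.693 CPM) and Hapln4 (12.3 CPM).

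At the epicenter, 8 of the 10 genes fell and 1 rose against uninjured cord: link proteins, aggrecan, neurocan, tenascin-R, brevican and neuroglycan C fell, the NG2 proteoglycan rose, and versican did not pass the test. The test was edgeR's quasi-likelihood test with Benjamini-Hochberg adjustment over all rows, and a gene was called at an adjusted p under 0.05. In this comparison 61.3% of all tested rows were called, 29.3% as lower and 31.9% as higher. The median log2 fold change of the 10 genes was -0.60, beside 0.00320 over all rows tested. For 9 of the 10 genes the epicenter and uninjured libraries did not overlap, as for 60.0% of all rows. These calls and directions were the same under all 25 alternative settings.

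Acan, the aggrecan core protein of perineuronal nets (chromosome 7, 79053483 to 79115099, plus strand, mm10), had 13.3, 11.5, 14.1 and 15.1 CPM at the epicenter, against 38.8, 35.7, 34.2 and 38.4 CPM in uninjured cord. No library of 1 group reached the range of the other, and Acan fell by 1.45 ± 0.28 on the log2 scale (SE; edgeR adjusted p = 3.89e-04), 2.72-fold lower. Ncan, neurocan, a lectican of neurons and astrocytes (chromosome 8, 70093085 to 70120873, minus strand), had 41.7, 33.1, 36.8 and 37.4 CPM at the epicenter, against 83.8, 81.0, 83.8 and 82.1 CPM in uninjured cord. The highest epicenter library lay far under the lowest uninjured one, and the log2 fold change was -1.15 ± 0.10 (edgeR adjusted p = 6.81e-07). Bcan, brevican, the lectican with the highest level (chromosome 3, 87987531 to 88000230, minus strand), had 281, 249, 213 and 272 CPM at the epicenter, against 332, 332, 363 and 374 CPM in uninjured cord. It fell by 0.46 ± 0.11 on the log2 scale, 1.38-fold lower (edgeR adjusted p = 0.00152). Vcan, versican, known from oligodendrocyte progenitors and connective tissue (chromosome 13, 89655312 to 89742509, minus strand), had 42.2, 44.1, 64.8 and 35.9 CPM at the epicenter, against 38.9, 40.7, 35.2 and 37.1 CPM in uninjured cord. Epicenter replicate 3 was the highest and the groups overlapped, with a log2 fold change of 0.30 ± 0.25 (edgeR adjusted p = 0.320).

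Among the link proteins, Hapln1 and Hapln4 differed more from uninjured cord than Hapln2 did, although these genes were not tested against each other. Hapln1, the link protein needed for dense nets (chromosome 13, 89540636 to 89611832 in the file), had 5.92, 6.84, 5.36 and 7.75 CPM at the epicenter, against 24.8, 22.2, 18.6 and 20.97 CPM in uninjured cord. It had the lowest log2 fold change of the 10 genes, -1.74 ± 0.49, or 3.34-fold lower (edgeR adjusted p = 0.00668). Hapln4, also called Bral2, a link protein of nets and inhibitory synapses (chromosome 8, 70083529 to 70090862 in the file), had 97.9, 84.9, 56.2 and 102 CPM at the epicenter, against 229, 224, 224 and 248 CPM in uninjured cord. It fell by 1.44 ± 0.47 on the log2 scale, 2.71-fold lower (edgeR adjusted p = 0.0151). Hapln2, also called Bral1, a link protein of the nodes of Ranvier (chromosome 3, 88021750 to 88027583, minus strand), had 103, 89.0, 81.4 and 90.9 CPM at the epicenter, against 127, 124, 127 and 135 CPM in uninjured cord. No epicenter library reached the uninjured range, and it fell by 0.49 ± 0.08 on the log2 scale, 1.41-fold lower (edgeR adjusted p = 1.21e-04).

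Tnr, tenascin-R, made by oligodendrocytes and some interneurons (chromosome 1, 159523769 to 159931729, plus strand), had 109, 105, 124 and 96.0 CPM at the epicenter, against 185, 182, 168 and 172 CPM in uninjured cord. It fell by 0.70 ± 0.11 on the log2 scale (edgeR adjusted p = 7.00e-05). A gene on the opposite strand shares 3.44% of its exonic bases. Whether counting used strand is not given, so reads of that gene may be among those of Tnr. The remaining members are proteoglycans that span the cell membrane. Cspg5, neuroglycan C, of neurons and glia (chromosome 9, 110243783 to 110262575 in the file), had 76.2, 75.0, 55.9 and 67.9 CPM at the epicenter, against 88.6, 92.4, 99.4 and 97.7 CPM in uninjured cord. It fell by 0.46 ± 0.13 on the log2 scale, with groups that did not overlap (edgeR adjusted p = 0.00552). Cspg4, the NG2 proteoglycan of oligodendrocyte progenitors and pericytes (chromosome 9, 56865104 to 56899870 in the file), had 68.5, 56.3, 72.3 and 65.0 CPM at the epicenter, against 26.6, 23.5, 25.5 and 26.7 CPM in uninjured cord. Every epicenter library exceeded the highest uninjured one, and Cspg4 rose by 1.36 ± 0.22 on the log2 scale, 2.56-fold higher (edgeR adjusted p = 9.15e-05).

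**Figure D2:**
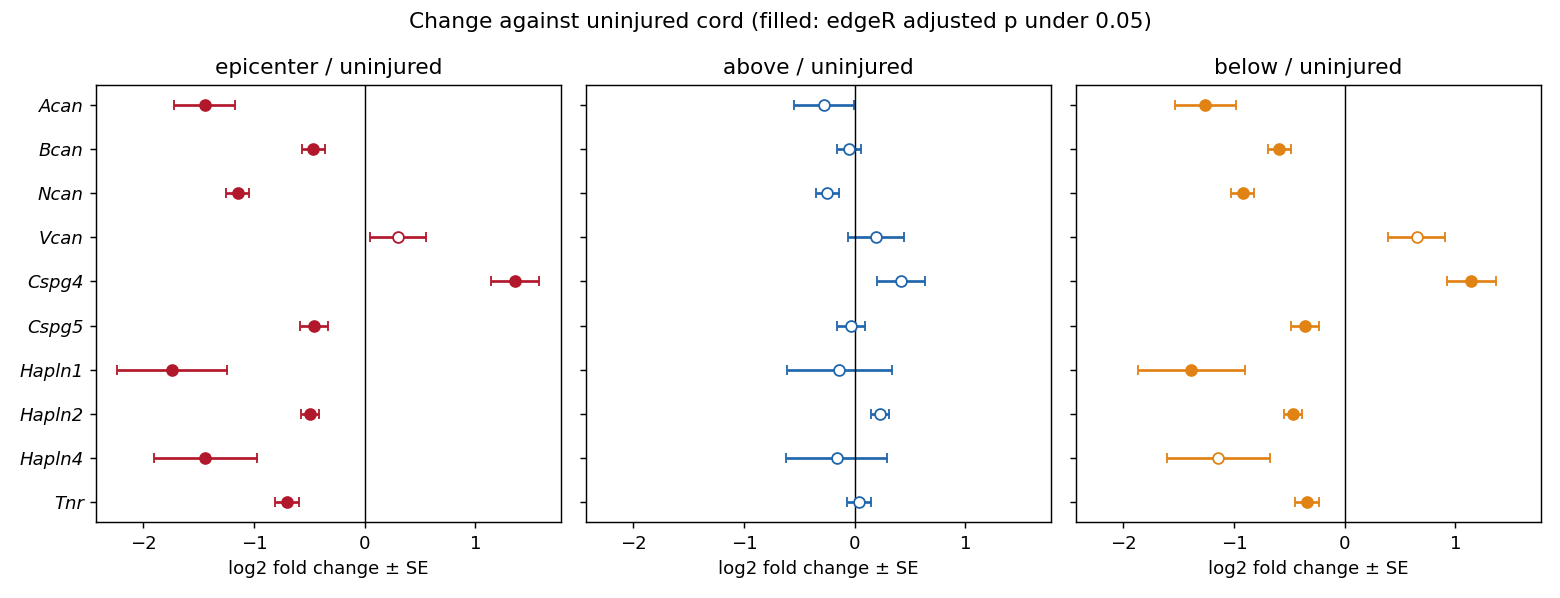
Log2 fold change (x axis) of each gene against uninjured cord, with its SE, for the epicenter, the segment above and the segment below; filled points passed edgeR at an adjusted p under 0.05. Open points are all 10 genes above, Vcan at the epicenter (0.30), and Vcan (0.65) and Hapln4 (-1.14) below.

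Above the injury, edgeR called 0 of the 10 genes against uninjured cord, where it called 3.54% of all rows (3.09% higher, 0.446% lower). At an unadjusted p under 0.05 there were 2, Ncan and Hapln2, and DESeq2 and limma-voom also called 0. The groups did not overlap for 5 of the 10 genes, beside 22.4% of all rows, and the median log2 fold change of the 10 was -0.04, beside 0 over all rows. Ncan had 63.7, 68.8, 75.1 and 70.9 CPM above, all lower than the uninjured libraries given before, with a log2 fold change of -0.25 ± 0.10 (edgeR adjusted p = 0.259). Hapln2 had 143, 142, 144 and 171 CPM above, all higher than in uninjured cord, at 0.23 ± 0.08 (edgeR adjusted p = 0.180). Acan had 30.1, 29.8, 32.9 and 28.9 CPM above, under the uninjured range, at -0.27 ± 0.27 (edgeR adjusted p = 0.718). Cspg4 had 35.5, 32.5, 32.7 and 36.0 CPM above, over the uninjured range, at 0.42 ± 0.22. Its adjusted p was 0.405 in edgeR, and 0.0126 without below replicate 3, whose spread enters the shared estimate. Hapln4 had 219, 201, 207 and 198 CPM above, just under the uninjured libraries, at -0.16 ± 0.46 (edgeR adjusted p = 0.922).

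The other members overlapped uninjured cord above the injury. Bcan had 349, 319.6, 339 and 343 CPM, Cspg5 96.4, 89.5, 91.6 and 92.4 CPM, and Hapln1 17.3, 20.9, 19.5 and 20.7 CPM. Their log2 fold changes were -0.05 ± 0.11, -0.03 ± 0.13 and -0.14 ± 0.48. Vcan had 31.3, 43.1, 49.2 and 49.9 CPM above and Tnr 146, 169, 209 and 199.8 CPM, and above replicate 1 was the lowest library for both. In a fit of only the 2 groups compared, which takes no spread from the epicenter and below libraries, 5 of the 10 passed: Acan, Ncan and Hapln4 as lower and Cspg4 and Hapln2 as higher. That fit called 16.6% of the 22217 rows it tested.

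Below the injury, 7 of the 10 genes fell and 1 rose against uninjured cord, where 39.3% of all rows were called, 15.7% as lower and 23.6% as higher. Acan, Bcan, Ncan, Cspg5, Hapln1, Hapln2 and Tnr fell, Cspg4 rose, and Vcan and Hapln4 did not pass. The groups did not overlap for 9 of the 10 genes, beside 43.6% of all rows. Without below replicate 3, when 35.0% of all rows were called, the counts were again 7 and 1, with Hapln4 lower (-0.77, edgeR adjusted p = 0.00252) and Cspg5 no longer called (-0.24, adjusted p = 0.0640). The median log2 fold change of the 10 genes was -0.53, beside -0.00311 over all rows. The comparisons at the epicenter and below share the uninjured libraries. With library totals alone as scaling, which moved the median of all rows by 0.141 on the log2 scale, Cspg5, Hapln1 and Tnr did not pass and 4 genes were called as lower. Leaving out single libraries ended 3 calls below. The Hapln1 call was lost without any 1 of the uninjured libraries or below replicate 4, the Cspg5 call without uninjured replicate 2, 3 or 4 or below replicate 3 or 4, and the Tnr call without uninjured replicate 1 or 2 or below replicate 1 or 4. Vcan passed as higher without epicenter replicate 3, below replicate 1 or below replicate 2 (log2 fold changes of 0.65, 0.75 and 0.80), and Hapln4 as lower without below replicate 2 (-1.48).

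Acan had 19.0, 23.6, 5.75 and 13.0 CPM below, each under the uninjured range, with a log2 fold change of -1.26 ± 0.28 (edgeR adjusted p = 0.00240; -0.99 without replicate 3). Ncan had 44.6, 52.9, 35.6 and 41.4 CPM below, at -0.92 ± 0.10 (edgeR adjusted p = 9.26e-06; -0.84 without replicate 3). Bcan had 246, 274, 204 and 206 CPM below, at -0.59 ± 0.11 (edgeR adjusted p = 5.40e-04; -0.53 without replicate 3). For these lecticans replicate 2 was the highest of the libraries below and replicate 3 the lowest. Vcan had 45.8, 39.6, 102 and 51.3 CPM below, at 0.65 ± 0.25 (edgeR adjusted p = 0.0548). Its highest value was in replicate 3, and without it the log2 fold change was 0.26 (edgeR adjusted p = 0.274).

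Hapln1 had 9.88, 13.7, 0.693 and 8.81 CPM below. Replicate 3, with 58 counts, held the lowest value of the 16 libraries for this gene, and the log2 fold change was -1.39 ± 0.49 (edgeR adjusted p = 0.0348). Without replicate 3 it was -1.0002, with an edgeR adjusted p of 8.95e-05. Hapln4 had 137, 169, 12.3 and 100.03 CPM below, with replicate 3 again the lowest, at -1.14 ± 0.47 (edgeR adjusted p = 0.0624). Hapln2 had 92.7, 99.6, 89.6 and 87.8 CPM below, a narrow range that replicate 3 did not leave, at -0.47 ± 0.08 (edgeR adjusted p = 4.25e-04; -0.46 without replicate 3). Tnr had 133, 141, 155 and 129 CPM below, with replicate 3 the highest, at -0.34 ± 0.11 (edgeR adjusted p = 0.0234; -0.39 without replicate 3). Cspg5 had 82.0, 87.7, 54.0 and 70.5 CPM below, at -0.36 ± 0.13 (edgeR adjusted p = 0.0335). Cspg4 had 47.0, 34.4, 95.6 and 48.8 CPM below, all over the uninjured range, at 1.14 ± 0.22 (edgeR adjusted p = 8.74e-04). Without replicate 3, the log2 fold change of Cspg4 was 0.76 (edgeR adjusted p = 4.13e-05).

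Between segments, the epicenter differed from the segment above in the same 8 genes as lower and Cspg4 as higher, where 52.7% of all rows were called (24.4% lower, 28.3% higher). The groups did not overlap for 9 of the 10, beside 50.8% of all rows. The log2 fold changes of epicenter over above were -1.60 ± 0.49 for Hapln1, -1.28 ± 0.47 for Hapln4, -1.17 ± 0.28 for Acan, -0.90 ± 0.10 for Ncan, -0.74 ± 0.11 for Tnr, -0.72 ± 0.08 for Hapln2, -0.43 ± 0.13 for Cspg5 and -0.41 ± 0.11 for Bcan. Cspg4 stood at 0.94 ± 0.22 (edgeR adjusted p = 0.00241). Hapln4 had edgeR adjusted p = 0.0320 here, and this call was lost without any 1 of the 4 libraries above, and without epicenter replicate 1, 2 or 3 (adjusted p from 0.0502 to 0.0851). The Hapln4 values of these groups did not overlap, and the spread of below replicate 3 enters the shared estimate. Without that library 9 of the 10 genes were called, beside 59.6% of all rows. In a fit of only epicenter and above 9 were called, beside 56.6% of all rows.

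Between epicenter and the segment below, edgeR called 1 of the 10 genes, Tnr, as lower at the epicenter (-0.36 ± 0.11, edgeR adjusted p = 0.0299), where 21.3% of all rows were called, 10.2% as lower. For 1 of the 10 genes the groups did not overlap, beside 14.7% of all rows. Without below replicate 3 it called 6 of the 10, and 46.0% of all rows. Acan (-0.46, adjusted p = 0.0150), Ncan (-0.31, 0.00773), Hapln1 (-0.74, 8.80e-04), Hapln4 (-0.67, 0.00467) and Tnr (-0.31, 0.0277) were then lower at the epicenter, and Cspg4 (0.59, 3.98e-04) higher. The Tnr call was lost without epicenter replicate 1, 2 or 4 and without below replicate 2. In a fit of only these 2 groups, where edgeR called 0.134% of all rows, Tnr did not pass (edgeR adjusted p = 0.0858), nor did the other members. With same-numbered libraries paired in that fit, where it called 0.234% of all rows, Tnr stood at -0.39 (edgeR adjusted p = 0.0886) and again no member passed. Between above and below, where 24.4% of all rows were called (9.11% higher, 15.2% lower), Acan, Bcan, Ncan, Hapln2 and Tnr were higher above and Cspg4 lower. The log2 fold changes of above over below were 0.99 ± 0.27, 0.54 ± 0.11, 0.67 ± 0.10, 0.70 ± 0.08, 0.38 ± 0.11 and -0.73 ± 0.22, in that order. For 7 of the 10 genes the groups did not overlap, beside 25.7% of all rows. Without below replicate 3, when 21.1% of all rows were called, Hapln1 (0.86) and Hapln4 (0.61) were also called as higher above. Cspg4 stood at -0.34 without that library (adjusted p = 0.0310), and with it the call was lost without above replicate 2, 3 or 4. The Acan call was lost without below replicate 4, and the Tnr call without above replicate 3 or 4 or below replicate 1 or 4.

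Within the lecticans, brevican made up most of the RNA per length in every group, while aggrecan and versican changed places in mean share. Of the summed RPKM of the 4 lecticans, Bcan held 85.7 ± 2.52% at the epicenter, 83.2 ± 1.33% above, 82.2 ± 1.78% below and 81.8 ± 1.04% in uninjured cord (SD, n = 4). Acan held 2.54 ± 0.369% at the epicenter, 4.14 ± 0.236% above, 2.91 ± 1.21% below and 4.76 ± 0.365% in uninjured cord. Ncan held 7.15 ± 0.647% at the epicenter, 9.70 ± 0.664% above, 8.71 ± 0.649% below and 10.9 ± 0.529% in uninjured cord. Vcan held 4.56 ± 1.69% at the epicenter, 3.00 ± 0.585% above, 6.16 ± 3.46% below and 2.50 ± 0.263% in uninjured cord, and 4.50% below without replicate 3, where Acan held 3.47%. So Acan exceeded Vcan in mean share in uninjured cord and above, and Vcan exceeded Acan at the epicenter and below. In below replicate 2 Acan held more (3.98%) than Vcan (3.39%). The sum itself was 72.7 ± 7.03 RPKM at the epicenter, 99.9 ± 3.10 above, 69.5 ± 8.87 below and 105 ± 5.11 in uninjured cord. These shares were not tested.

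**Figure D3:**
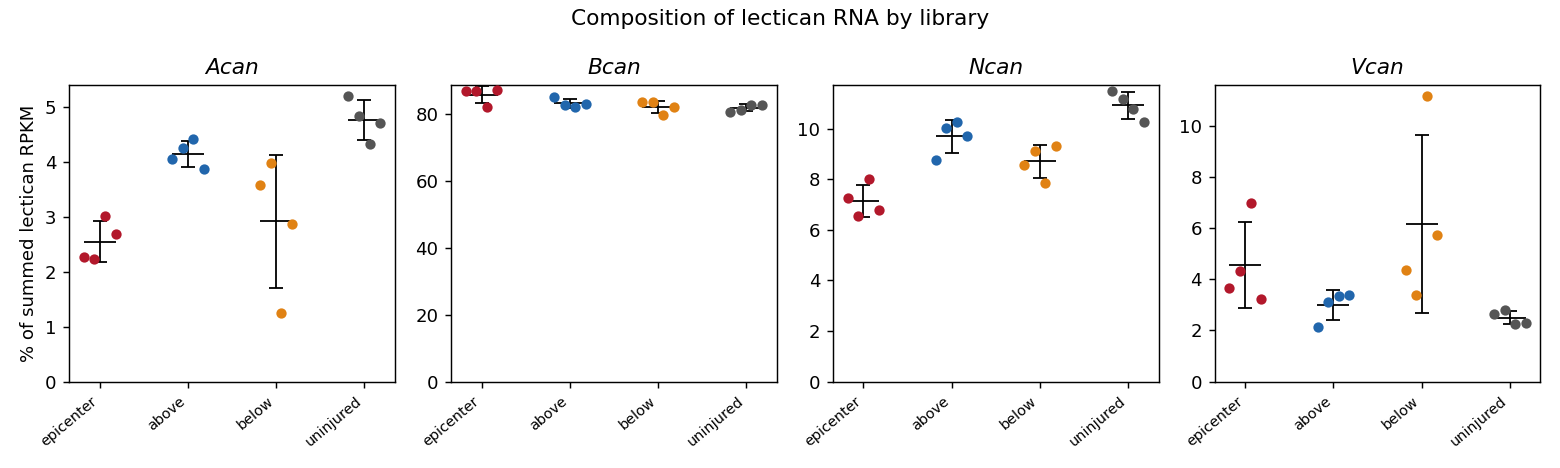
Share of each lectican in the summed RPKM of Acan, Bcan, Ncan and Vcan (y axis in percent, from 0) in each library (points), with mean and SD (bars) by group. Acan and Ncan have their lowest mean shares at the epicenter (2.54% and 7.15%), and the highest Vcan share is in below replicate 3 (11.2%).

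Neuronal markers moved with several members. A list of 10 markers of neurons that often bear nets (Pvalb, Kcnc1, Chat and others) summed to 797 to 1267 CPM at the epicenter, 1993 to 2129 above, 465 to 1627 below and 2127 to 2265 in uninjured cord. Of this list 9 genes fell at the epicenter and 7 below, against uninjured cord. Over all rows tested, 29.3% were called as lower at the epicenter and 15.7% below, and 31.9% and 23.6% as higher. Above, 3.09% of all rows were called as higher. Of 10 general neuronal markers 9 fell at the epicenter and 3 below, and their sum was 1534 to 2381 CPM at the epicenter, 4119 to 4475 above, 762 to 3721 below and 4486 to 4716 in uninjured cord. The library lowest in both sums, below replicate 3, was also the lowest for Acan, Bcan, Cspg5, Hapln1 and Hapln4. Oligodendrocyte markers, of which 5 of 10 fell and 1 rose at the epicenter, summed to 15037 to 18841 CPM there, 21372 to 22400 above, 13774 to 17979 below and 19551 to 20223 in uninjured cord. Astrocyte markers, of which 3 of 10 rose and 3 fell at the epicenter, summed to 8811 to 11402 CPM there, 9064 to 10042 above, 7132 to 14073 below and 6995 to 7279 in uninjured cord. Of 10 microglia and macrophage markers 9 rose at the epicenter, 10 above and 9 below, with sums of 2974 to 4787 CPM at the epicenter, 554 to 629 above, 729 to 6853 below and 199 to 218 in uninjured cord. Endothelial markers, of which 7 of 10 rose at the epicenter and 8 below, summed to 407 to 545 CPM at the epicenter, 273 to 334 above, 442 to 834 below and 243 to 293 in uninjured cord. The part of these cells in the lower values of Acan, Ncan, Bcan, Hapln1, Hapln2, Hapln4, Cspg5 and Tnr was not tested.

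Beside the rise of Cspg4, 9 markers of oligodendrocyte progenitors and their lineage rose in 4 cases and fell in 2 at the epicenter, and in 2 and 2 cases below. Their sum was 479 to 588 CPM at the epicenter, 512 to 542 above, 408 to 624 below and 469 to 522 in uninjured cord. Among all rows, 31.9% were called as higher and 29.3% as lower at the epicenter, and 23.6% and 15.7% below. Of 10 pericyte and smooth muscle markers, 7 rose and 1 fell at the epicenter, and 6 rose below. The marker that fell was Abcc9 (-0.52 ± 0.17), and Rgs5 did not pass at the epicenter (0.17 ± 0.21). Anpep, which rose, was at 59.4 ± 13.5 CPM at the epicenter and 1.68 ± 0.111 CPM in uninjured cord. The 10 markers summed to 293 to 377 CPM at the epicenter, 211 to 263 above, 269 to 620 below and 191 to 222 in uninjured cord. Fibroblast markers, of which 10 of 10 rose at the epicenter, summed to 3620 to 5095 CPM there, 192 to 676 above, 713 to 2714 below and 103 to 134 in uninjured cord. Schwann cell markers rose in 9 of 10 cases and fell in 1 at the epicenter and again below, with sums of 2265 to 3007 CPM at the epicenter, 609 to 967 above, 2274 to 3475 below and 544 to 689 in uninjured cord. Below replicate 3 was the highest library for Cspg4, for the progenitor sum and for the pericyte sum. It was also highest for the astrocyte (14073 CPM), microglia and macrophage (6853 CPM), endothelial (834 CPM) and Schwann cell (3475 CPM) sums. The part of these cells in the Cspg4 and Vcan values was not tested.

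**Figure D4:**
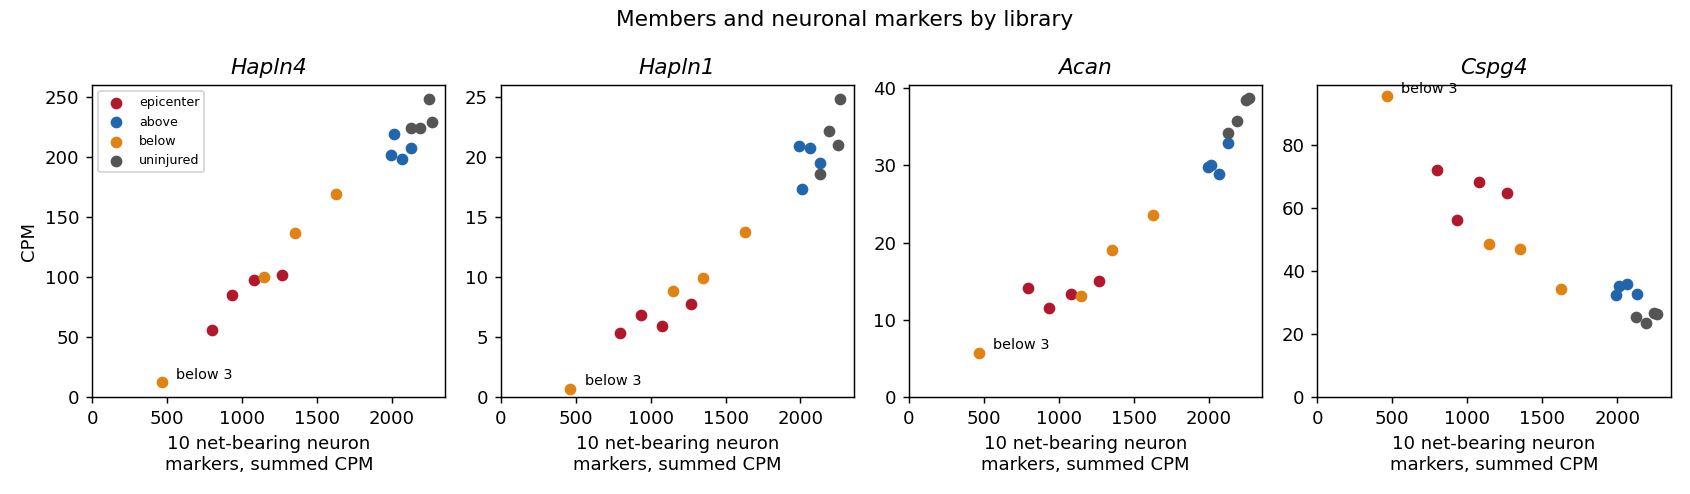
CPM of Hapln4, Hapln1, Acan and Cspg4 (y axis) against the summed CPM of 10 markers of net-bearing neurons (x axis), 1 point per library, coloured by group. Below replicate 3 has the lowest marker sum (465 CPM) and the lowest Hapln4, Hapln1 and Acan values, and the highest Cspg4 value (95.6 CPM).

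Lectican and link protein genes lie next to each other in the mouse genome, with 0 annotated genes between the partners. Hapln4 and Ncan lie 2222 bases apart on chromosome 8, Bcan and Hapln2 21519 bases apart on chromosome 3, and Hapln1 and Vcan 43659 bases apart on chromosome 13. At the epicenter, Hapln4 and Ncan stood at -1.44 and -1.15 and Bcan and Hapln2 at -0.46 and -0.49, while Hapln1 stood at -1.74 and Vcan at 0.30. Below, the log2 fold changes were -1.14 and -0.92, -0.59 and -0.47, and -1.39 and 0.65 for the same pairs. Among these pairs of members, Hapln1 and Vcan are the neighbours whose directions differed, and Vcan did not pass the test in either comparison. Hapln3, the link protein beside Acan on chromosome 7, is not a member. It was at 0.989 ± 0.234 CPM at the epicenter and 0.689 ± 0.103 CPM in uninjured cord (log2 fold change 0.52 ± 0.22, edgeR adjusted p = 0.0545). Below, the log2 fold change of Hapln3 was 0.31 ± 0.22 (edgeR adjusted p = 0.284). Acan stood at -1.45 at the epicenter and -1.26 below, so the signs of this pair differed too, and Hapln3 did not pass in either comparison.

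Among the 10, Bcan and Cspg5 had the smallest root mean square difference over the 16 libraries, 0.13 between centred log2 CPM values. The measure is not scaled by how much a gene varies, so genes that vary little can score as close. Bcan and Hapln2 differed by 0.15 and Hapln1 and Hapln4 by 0.20 on this measure. Over all tested genes, the closest profile to Acan was that of Zmynd12 (0.15), to Bcan that of Adap1 (0.06), to Ncan that of Lss, lanosterol synthase (0.06), to Vcan that of Sox6, a transcription factor that is also in the progenitor list (0.11), and to Cspg4 that of Man1c1, a mannosidase (0.07). The closest to Cspg5 was Lrrc24 (0.04), to Hapln1 Lingo4 (0.15), to Hapln2 S1pr5, a sphingosine phosphate receptor of oligodendrocytes (0.07), to Hapln4 Panx2, pannexin 2 (0.09), and to Tnr Usp54 (0.08). Syt2, a synaptotagmin of fast-firing neurons, was the third closest gene to both Hapln1 (0.18) and Hapln4 (0.11). For Ncan the next in order were Acss2 (0.09) and Sc5d (0.09).

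Other genes of nets and proteoglycans moved in both directions. As given before, 31.9% of all rows were called as higher at the epicenter and 29.3% as lower. Of 7 other net proteins and partners tested, 2 rose and 3 fell at the epicenter, with a median log2 fold change of -0.31. Tnc, tenascin-C, a matrix protein of development and injury, had 45.3 ± 17.8 CPM at the epicenter and 6.77 ± 0.623 CPM in uninjured cord (SD, n = 4 each), and rose by 2.74 ± 0.37 on the log2 scale (edgeR adjusted p = 1.68e-05). Cd44, a hyaluronan receptor, rose by 2.80 ± 0.36. Ptprz1, a phosphatase whose extracellular form is the proteoglycan phosphacan, was at 105 ± 29.8 CPM at the epicenter and 186 ± 9.77 CPM in uninjured cord and fell by 0.83 ± 0.17, and Crtac1, a cartilage protein also found in nets, fell by 0.82 ± 0.22. Of 15 other proteoglycan genes 10 rose and 5 fell at the epicenter (median 1.23). The small leucine-rich proteoglycans Dcn, decorin, and Lum, lumican, were at 766 ± 35.6 and 109.5 ± 23.0 CPM at the epicenter and at 11.1 ± 3.59 and 1.15 ± 0.302 CPM in uninjured cord. Their log2 fold changes were 6.11 ± 0.65 and 6.57 ± 0.73, and both are also in the fibroblast list whose sums are given before. Spock1 and Spock3, testicans of the nervous system, fell by 1.30 ± 0.24 and 1.59 ± 0.23.

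Other lists hold the genes that build and sulfate the sugar chains. Of 12 chain synthesis genes 3 rose and 2 fell at the epicenter, where their median log2 fold change was 0.04. Beside this, 31.9% of all rows were called as higher there and 29.3% as lower. Chsy1 and Csgalnact2, which extend and start the chain, rose by 1.02 ± 0.12 and 0.64 ± 0.09, and Chsy3, a synthase of the same family as Chsy1, and Fam20b, a xylose kinase, fell by 1.49 ± 0.25 and 0.56 ± 0.10. Of 13 sulfation genes 8 rose at the epicenter (median 0.47). Chst11, which sulfates position 4 of the sugar, was at 69.7 ± 10.6 CPM at the epicenter and 45.0 ± 1.395 CPM in uninjured cord (0.63 ± 0.18, edgeR adjusted p = 0.00615). Dse, the epimerase that makes dermatan sulfate, rose by 2.44 ± 0.29. Chst13, another sulfotransferase, was also called, at 0.586 CPM at the epicenter and 0.0142 CPM in uninjured cord. The uninjured value is under the level of 3 counts per library (0.0387 to 0.0485 CPM), so no fold is given.

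Proteases that cut lecticans, hyaluronan genes and receptors were described in the same way. Here too the shares of all rows at the epicenter were 31.9% called as higher and 29.3% as lower. Of 15 proteases and inhibitors 12 rose and 1 fell at the epicenter (median 1.17). Adamts5, an aggrecanase, was at 28.6 ± 2.57 CPM at the epicenter and 14.4 ± 0.451 CPM in uninjured cord (0.99 ± 0.11, edgeR adjusted p = 2.41e-06), while Adamts4, another aggrecanase, was at 87.2 ± 1.13 CPM at the epicenter and 114 ± 3.42 CPM in uninjured cord and fell by 0.39 ± 0.10. Mmp3 and Timp1, a stromelysin and an inhibitor of metalloproteases, had the largest log2 fold changes of that list, 5.48 ± 0.59 and 5.38 ± 0.32, and Mmp3 was at only 0.0639 CPM in uninjured cord. Of 8 hyaluronan genes 7 rose at the epicenter (median 0.67), Has2, a hyaluronan synthase, by 2.11 ± 0.36 and Cemip, which breaks hyaluronan down, by 3.12 ± 0.35. Of 7 genes of lysosomal chain breakdown 6 rose (median 1.95), with Hexa at 2.61 ± 0.35, and Ids fell by 1.08 ± 0.15. Among 8 receptors (2 rose, 1 fell, median 0.12), Ptprs and Ptprf, receptor phosphatases that bind the sugar chains, did not pass at the epicenter (-0.09 ± 0.09 and 0.10 ± 0.09), nor did the Nogo receptor Rtn4r (-0.45 ± 0.24). Ngfr and Rtn4rl2 rose by 2.95 ± 0.36 and 2.74 ± 0.33, and Lingo1, a co-receptor, fell by 1.03 ± 0.25.

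Above the injury, the genes of these lists that passed against uninjured cord included Cd44 (1.33 ± 0.34), Fmod, fibromodulin (2.93 ± 0.48), and Timp1 (2.72 ± 0.29), each higher. Fmod was at 48.9 ± 42.0 CPM above, a wide spread between libraries, and at 6.43 ± 0.590 CPM in uninjured cord. Its value without above replicate 1, the library high in fibroblast markers, is not given. Below, Adamts5 rose by 1.02 ± 0.11 and Adamts4 fell by 0.36 ± 0.10, as did Mmp9 by 0.95 ± 0.35. Tnc rose by 2.61 ± 0.36, Dcn by 5.15 ± 0.62, Chst11 by 0.57 ± 0.18, Has2 by 1.46 ± 0.35 and Ptprf by 0.40 ± 0.09, and Ptprz1 did not pass (-0.10 ± 0.17). Counts below were 2 higher and 2 lower of 7 net partners, 9 and 4 of 15 proteoglycans, 2 and 2 of 12 synthesis genes, 11 and 2 of 15 proteases and inhibitors, 6 and 1 of 7 breakdown genes and 3 and 1 of 8 receptors. Of 13 sulfation genes 5 rose below, and of 8 hyaluronan genes 5. Over all rows, 23.6% were called as higher below and 15.7% as lower. Without below replicate 3, 10 proteases and inhibitors were higher and 1 lower, with Mmp9 no longer called (-0.67, edgeR adjusted p = 0.0622), and the counts of the other lists were the same. Chst11 then stood at 0.30 and Tnc at 2.13.

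**Figure D5:**
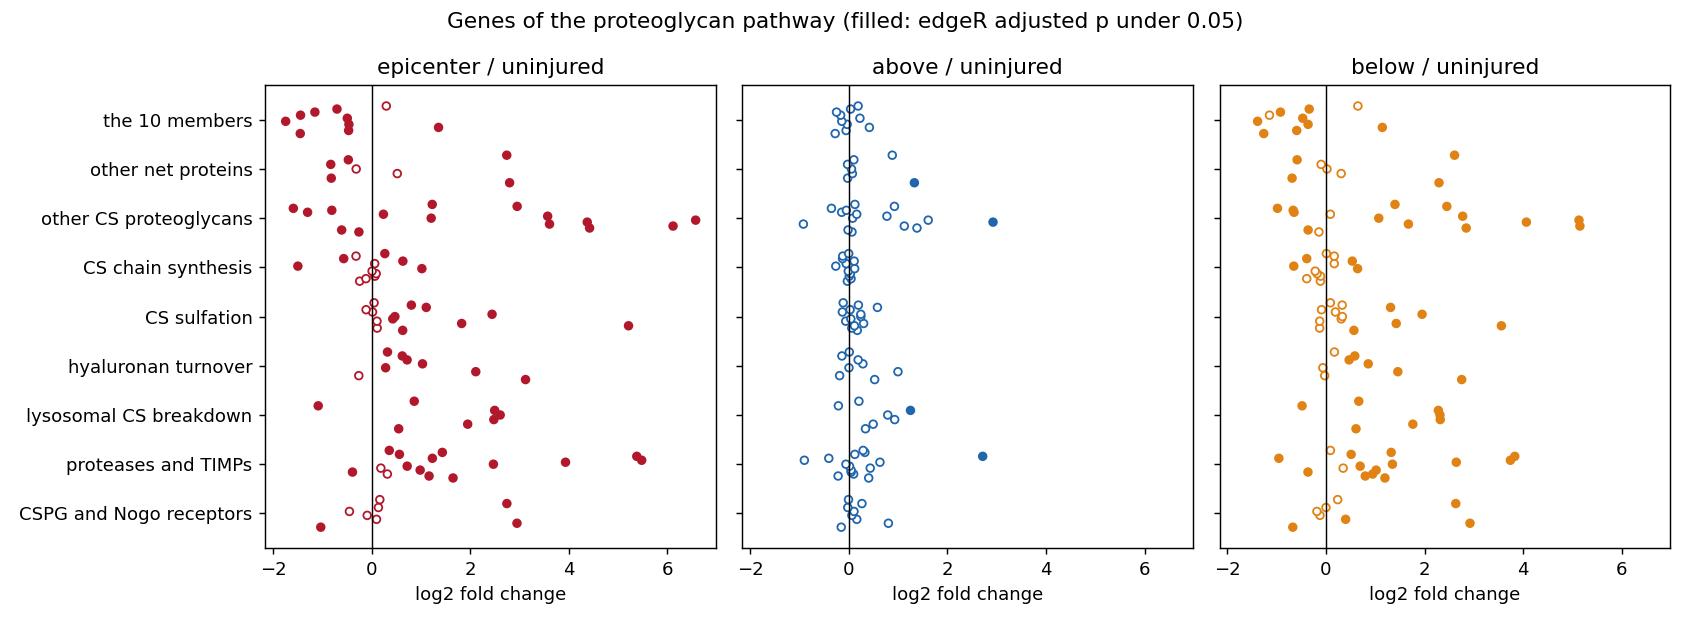
Log2 fold change against uninjured cord (x axis) of the 10 members and of the genes in 8 lists of the pathway, 1 point per gene, filled where edgeR's adjusted p was under 0.05. At the epicenter 8 of the 10 members lie left of 0 and filled, while 12 of 15 proteases and inhibitors lie right of 0 and filled, and above the injury most points are open and near 0.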

How the data were processed

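RNA from 16 mouse spinal cord libraries, 4 in each of 4 groups, was read from 1 deposited table of raw counts per gene, per the file headers, with gene names, coordinates and a gene length. Subread 1.4.4, TopHat2 2.0.12, edgeR and the build mm10 are listed in the submitters' processing notes, with no role or order, and whether counting used strand is not given in the sources used here. The length, whose definition the deposited file headers do not state, was used only for RPKM. Rows with low counts were dropped with filterByExpr, which left 23769 of 43346 rows and at least 99.9688% of each library's counts, and 127 rows with a repeated or empty name were called by their ID. Counts were scaled with TMM factors and tested with edgeR 4.0.16 (quasi-likelihood, R 4.3.3) in 1 fit of all 4 groups, with Benjamini-Hochberg adjustment over all tested rows at 0.05 and 6 comparisons. The procedure was tested on simulated counts. DESeq2 1.42.0 and limma-voom (limma 3.58.1), other scalings, filters, a replicate block and leaving out libraries were alternatives. Same-numbered epicenter and below libraries deviated together from their group means (4 of 4 pairs over 0.1, r from 0.136 to 0.404), so these groups were also fitted as pairs, a choice made after seeing the data; no label states such pairs. Similarity of profiles used log2 CPM with a pseudocount of 0.5. Replicate libraries differed by more than counting error, at a chi-square per degree of freedom of at least 6.43. Named were the 10 members, per list the 2 called genes with the largest change in each direction, 10 fixed genes that act on members, and the 3 genes closest in profile to each member; some are given only as counts, and 1 is not reported here. Members and lists were chosen with earlier results of these data known. Gene counts do not separate isoforms.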

Additional observations from a re-analysis of the deposited data

Results flagged for a closer look

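For Hapln2, above replicate 4 (171 CPM) lay far from the other libraries above. The gap to the nearest library took up 0.923 of the range of the group, over the 95% limit of Dixon's test for 4 samples. This rule was applied to 40 groups, and chance marks about 1 group in 20.

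Changes against uninjured cord differed for 9 of the 10 genes between epicenter and above and for 1 between epicenter and below. Between above and below they differed for 6. The shares of all rows were 52.7%, 21.3% and 24.4%, in that order. The test was edgeR's quasi-likelihood test of the difference with Benjamini-Hochberg adjustment over all rows. Since each change is measured against the same uninjured libraries, the difference between 2 segments is the direct contrast of the 2 segments. Uninjured cord was 1 piece that pools these levels, so cord level and injury cannot be told apart in these contrasts. For epicenter minus above, the log2 differences were -1.17 for Acan, -0.41 for Bcan, -0.90 for Ncan, 0.94 for Cspg4, -0.43 for Cspg5, -1.60 for Hapln1, -0.72 for Hapln2, -1.28 for Hapln4 and -0.74 for Tnr. For epicenter minus below, the log2 difference was -0.36 for Tnr. For above minus below, the log2 differences were 0.99 for Acan, 0.54 for Bcan, 0.67 for Ncan, -0.73 for Cspg4, 0.70 for Hapln2 and 0.38 for Tnr.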

How the results depend on the processing

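Of 1500 values (10 genes, 6 comparisons, 25 settings), 1399 kept their direction and side of the threshold, 45 lost a call, 40 gained one and 16 changed sign. All 250 at the epicenter against uninjured cord were among the first. For above against uninjured cord, the count of higher genes was 2 with only the 2 groups compared, 1 with above replicate 1 and below replicate 3 left out together, and 0 to 1 over libraries left out singly, and the count of lower genes was 3 with only the 2 groups compared. For below against uninjured cord, higher genes were 2 with library totals, 2 with DESeq2 and 1 to 2 over libraries left out, and lower genes 4 with library totals and 4 to 8 over libraries left out. For epicenter against below, higher genes were 1 with both libraries left out and 0 to 1 over single ones, and lower genes were 2 with library totals, 0 with only the 2 groups compared, 5 with both libraries left out and 0 to 5 over single ones. For above against below, higher genes were 3 with only the 2 groups compared and 3 to 7 over libraries left out, and lower genes were 0 with only the 2 groups compared and 0 to 1 over libraries left out. The cause was not tested.

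Signs changed in values that had not passed. Cspg5 stood at 0.0119 for above against uninjured cord with library totals, and Tnr there ran from -0.0383 to 0.13 over libraries left out. Vcan ran from -0.0906 to 0.21 for epicenter against above over libraries left out and was -0.0200 with both left out. For epicenter against below, the ranges over libraries left out were -0.46 to 0.10 for Acan, -0.55 to 0.0368 for Vcan, -0.74 to 0.00114 for Hapln1, -0.0863 to 0.0283 for Hapln2 and -0.67 to 0.0365 for Hapln4. There limma-voom gave 0.24 for Hapln1 and 0.19 for Hapln4, a replicate block in epicenter and below alone gave 0.0557 and 0.11, and Vcan was 0.0373 with both libraries left out. For above against below, Vcan was 0.0573 with both left out.

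With the replicate number as a block, lower genes below were 8 (Hapln4, adjusted p = 0.0392) and genes higher above than below were 6 (Cspg5, adjusted p = 0.0478), and no other call changed in this fit of all groups. In the other 5 comparisons not every same-numbered pair correlated over 0.1, so the numbers were not read as pairing there. For epicenter against below alone, where they were, 0 lower genes were called both with the block and without it. The block there was an alternative chosen after seeing the data. Over all rows, calls of higher genes ran from 208 to 2522 above and from 29 to 5745 for epicenter against below. At 65.6 to 90.0 M counts a library, the lowest member value (58 counts, Hapln1 in below replicate 3) is the one that counting error touches most.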
